A study of Mus musculus with 2 samples.

Results

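The cells described here were Lyve1-low macrophages, 463 of the 34813 cell barcodes in 1 single-cell RNA sequencing library of cultured mouse aorta. The source was dorsal aorta, digested with enzyme, from 2 C57BL/6J mice (male, 12 weeks old), and the freed cells had 14 days to form colonies in methylcellulose. Colonies called CFU-M, for macrophage colony-forming unit, were picked and dispersed, and live cells were sorted. Per the labels, cells from both animals and from separately tagged suspensions went into 1 droplet run, and no genotype, agent or untreated group is named. Everything below therefore compares cells within 1 library, with no replicate and no test.

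A barcode was kept with at least 500 genes, at least 1000 gene UMIs (unique molecular identifiers, each counting 1 captured RNA molecule) and at most 10% mitochondrial UMIs, which 33964 barcodes passed. A macrophage had at least 0.1% of its UMIs from the complement genes C1qa, C1qb and C1qc. It also had under 1.5% from the mast cell proteases Cpa3 and Cma1, and under 0.3% from the fibroblast genes Col1a1, Col1a2, Col3a1 and Dcn. That left 1838 macrophages. The 463 members had under 300 CPM (UMIs per 1000000 gene UMIs) of Lyve1, Folr2 and Timd4 together, and made up 25.2% of the macrophages (exact binomial 95% interval 23.2 to 27.2). The remaining 1375 are called other macrophages. The members were thus chosen by their measured levels of these C1q, mast cell, fibroblast and Lyve1, Folr2 and Timd4 genes, whose values are no finding. The 3 genes had no UMI in 306 members, 1 UMI in 106, 2 in 29 and 3 or more in 22. The threshold crossed a continuum, with 26 macrophages at 250 to 300 CPM and 20 at 300 to 350. In 39 members, depth was so low that 1 UMI would have put the cell over the limit.

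Resident macrophages of the vessel wall are commonly divided by the hyaluronan receptor Lyve1, the folate receptor Folr2 and the phosphatidylserine receptor Timd4. Cells low in these are often higher in MHC class II, the molecules that present peptides to CD4 T cells, and in Ccr2, the receptor for the monocyte-attracting chemokine Ccl2. Transcription of class II genes depends on the coactivator Ciita, which is recruited by factors bound to a shared set of promoter boxes.

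The promoters of 3 class II genes are shown, all of them higher in the members than in other macrophages. Each is 300 bases of RefSeq sequence on GRCm38.p6, from 250 bases before to 50 after the start, with the Y box core TGATTGG and the longest run shared by H2-Eb1 and H2-DMb1, AACTGATGATGCT, in capitals. The intervals are chr17:34287774-34288073 on the minus strand for H2-Aa, chr17:34305617-34305916 on the plus strand for H2-Eb1 and chr17:34152941-34153240 on the plus strand for H2-DMb1.
H2-Aa: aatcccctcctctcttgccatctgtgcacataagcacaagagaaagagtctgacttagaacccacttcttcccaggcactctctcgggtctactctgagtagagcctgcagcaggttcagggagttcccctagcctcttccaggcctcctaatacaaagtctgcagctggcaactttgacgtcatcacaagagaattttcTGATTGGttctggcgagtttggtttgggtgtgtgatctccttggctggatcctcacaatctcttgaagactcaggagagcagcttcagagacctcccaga
H2-Eb1: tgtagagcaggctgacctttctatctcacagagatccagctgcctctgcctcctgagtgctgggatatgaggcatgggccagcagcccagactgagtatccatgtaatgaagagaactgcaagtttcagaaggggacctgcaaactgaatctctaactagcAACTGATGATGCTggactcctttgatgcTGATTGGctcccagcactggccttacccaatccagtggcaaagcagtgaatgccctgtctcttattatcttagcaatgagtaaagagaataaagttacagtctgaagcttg
H2-DMb1: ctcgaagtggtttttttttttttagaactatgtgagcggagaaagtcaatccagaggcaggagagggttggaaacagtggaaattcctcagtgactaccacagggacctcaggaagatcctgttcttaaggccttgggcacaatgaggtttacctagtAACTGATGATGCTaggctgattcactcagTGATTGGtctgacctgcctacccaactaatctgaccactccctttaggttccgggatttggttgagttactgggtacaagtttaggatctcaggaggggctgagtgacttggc
The letters were chosen after reading these sequences, do not overlap and were searched on both strands. TGATTGG was in 7 of the 8 listed class II genes with an entry and in 2568 of 32851 promoters (7.82%). The gene without it, H2-DMa, was also higher in the members and had 2 entries, which held neither stretch. AACTGATGATGCT was in 3 of all promoters (0.00913%), H2-Eb1 and H2-DMb1 among them. H2-Ab1, Cd74 and Ciita had no entry.

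The members had a median of 7139 UMIs (1031 to 57817) and 2325 genes, against 7508 UMIs and 2490 genes in other macrophages. Median mitochondrial share was 4.40% against 4.73%, and Cpa3 with Cma1 made up a median 0.209% against 0.190%. Scrublet, a doublet caller, marked 10 members (2.16%) and 16 other macrophages (1.16%), and these were kept. Of 3 sample tags in the matrix, the one named Macrophages alone was called on 410 members (88.6%) and on 1271 other macrophages (92.4%). More than 1 tag was called on 34 members (7.34%) and on 92 other macrophages (6.69%), of which Scrublet marked 14.7% and 14.1%. The listed class II genes summed to 10374 CPM in those 34 members and 30643 CPM in members with the Macrophages tag alone. The labels do not say what each tag marked. Although the labels give male mice, Xist without a Y-linked UMI was found in 160 members (34.6%) and a Y-linked UMI without Xist in 136 (29.4%). Ccr2 was detected in 34.7% and 30.5% of these cells with enough depth. The cells' animal of origin was not used.

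Markers matched a macrophage identity. Csf1r, the receptor for the macrophage growth factor Csf1, stood at 460.6 CPM in UMIs summed over the members and at 719.2 CPM in other macrophages. Adgre1, which encodes F4/80, was at 400.4 and 375.3 CPM. Csf1r was detected in 76.4% of members and in 0.978% of cells past the mast cell limit, after every cell was thinned at random to 3000 UMIs. Thinning, used for every share below, kept 427 members and left out 36 shallower ones. It kept 1318 other macrophages and left out 57. Some genes that define other cells were near 0, with Flt3 of dendritic cell progenitors at 0.737 CPM, the classical monocyte gene Ly6c2 at 2.21, Cd3d of T cells at 1.47 and Cdh5 of endothelium at 1.23. The dendritic cell and monocyte lists as wholes were not near 0. The 16 dendritic cell genes summed to 878.7 CPM in members and 1430 CPM in other macrophages, most of it from the lectin Mgl2 (572.0 against 697.0 CPM), with the transcription factors Irf8 at 117.4 and Batf3 at 64.1 CPM in members. The 18 monocyte genes summed to 3721 against 3784 CPM, with Fn1 at 299.5 and S100a4 at 264.9 CPM in members. Mast cell genes were not near 0. The 10 listed mast cell genes summed to 2195 CPM in members and 2095 CPM in other macrophages, a ratio of 1.05.

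Ccr2 RNA was found more often in the members than in other macrophages. At 3000 UMIs per cell, 147 of 427 members (34.4%, 29.9 to 39.2) had a Ccr2 UMI, against 168 of 1318 other macrophages (12.8%, 11.0 to 14.7). The background was 0.528% in cells past the mast cell limit, whose median depth before thinning was 11982 UMIs against 7515 for members. Among the members, 60 cells had 1 Ccr2 UMI, 35 had 2 and 52 had 3 or more. The summed level was 255.3 CPM against 108.2, a ratio of 2.36 (2.17 to 2.56), and 2.85 with both sets thinned. All such intervals cover counting error only. Ccr2 lies at chr9:124101950-124113557 on the plus strand in the GENCODE annotation of GRCm38.

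MHC class II was about 2-fold higher in the members. The 11 class II genes summed to 26773 CPM against 13394 in other macrophages, a ratio of 2.00 (1.98 to 2.01). Of 11 genes, 7 reached 50 CPM over both sets, and 4 of these were past 2-fold. Among all 3118 genes that reached 50 CPM, 2.15% were 2-fold or more higher in members and 4.23% were 2-fold or more lower. The median ratio was 2.05 for the 7 class II genes and 0.971 for all genes. H2-Eb1, a class II beta chain, stood at 4919 against 2059 CPM (2.39). H2-Ab1, another beta chain, stood at 4428 against 2161 CPM (2.05), and H2-DMb1, a subunit of the peptide exchanger H2-DM, at 324.6 against 139.5 CPM (2.33). Ciita stood at 90.1 against 38.9 CPM (2.32). The alpha chain H2-Aa, the invariant chain Cd74 and H2-DMa were at ratios of 1.90, 1.90 and 1.72, short of 2-fold. Reads of H2-Eb1 and Ciita cannot be told from those of overlapping genes on the opposite strand if strand was not used in counting. That limit also applies to genes named below, among them Il1b, Vcam1, Pparg and Cd9. H2-DMa overlaps genes on both strands, so its reads cannot be assigned with certainty.

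The difference was seen across most cells and not in a few. H2-Aa, H2-Ab1, H2-Eb1 and Cd74 took a median 3.17% of a member's thinned UMIs (10th to 90th percentile 1.22 to 4.73) and 1.17% in other macrophages (0.0333 to 3.30). Only 8 of 427 members were under 0.1%, against 206 of 1318 other macrophages (15.6%). The distributions overlapped widely.

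**Figure D1:**
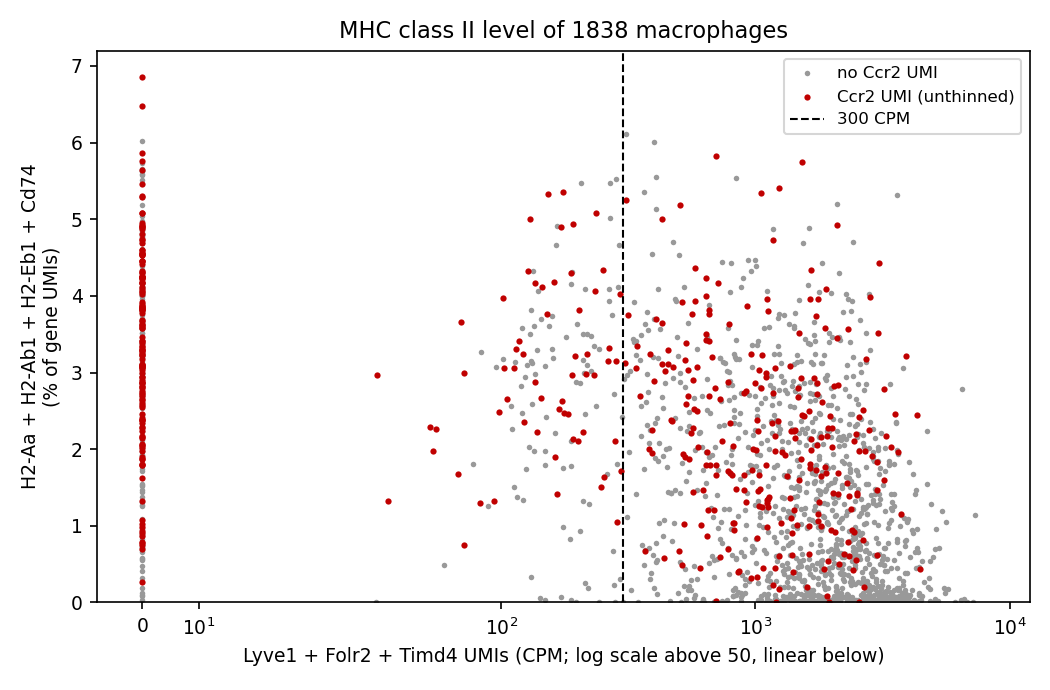
Each point is 1 of 1838 macrophages, with the share of UMIs from 4 class II genes (%) against Lyve1, Folr2 and Timd4 CPM (log scale above 50), and red marks cells with a Ccr2 UMI before thinning. Cells left of the dashed line at 300 CPM are the 463 members, of which 306 sit at 0, and most cells near 0% class II lie to its right.

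Within the members, class II level differed little between cells with and without a Ccr2 UMI. The class II genes summed to 33587 CPM in the 147 Ccr2-positive cells and 31261 CPM in the 280 Ccr2-negative cells, a ratio of 1.07 (1.05 to 1.10). None of 7 class II genes was past 1.5-fold, where 3.06% of the 2974 genes tested were higher and 5.28% lower. The ratio moved with depth, to 1.17 at 5500 UMIs per cell and 1.31 without thinning. In other macrophages the same split gave 23127 against 13652 CPM, a ratio of 1.69 (1.66 to 1.73). The Ccr2-positive and Ccr2-negative members had had medians of 7768 and 7390 UMIs before thinning, and in other macrophages 8903 and 7548.

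Sorting the members into 4 groups of near equal size by class II level gave Ccr2 in 29.9%, 36.4%, 34.6% and 36.8% of cells, from lowest to highest. In other macrophages the 4 groups held 2.12%, 7.27%, 19.1% and 22.5%. At matched class II level the members still had more Il1b, the inflammatory cytokine interleukin-1 beta. Between 3% and 4% class II, Il1b was at 534.8 CPM in members and 84.8 CPM in other macrophages, Cx3cr1 at 358.2 and 76.3 CPM, and the mannose receptor Mrc1 at 1721 and 3235 CPM. Ccr2 was found in 36.6% (28.4 to 45.3) and 21.2% (14.2 to 29.7) of these cells, intervals that overlap. Median depth before thinning fell across the members' 4 groups from 9550 to 6120 UMIs, and its part in these values was not tested.

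**Figure D2:**
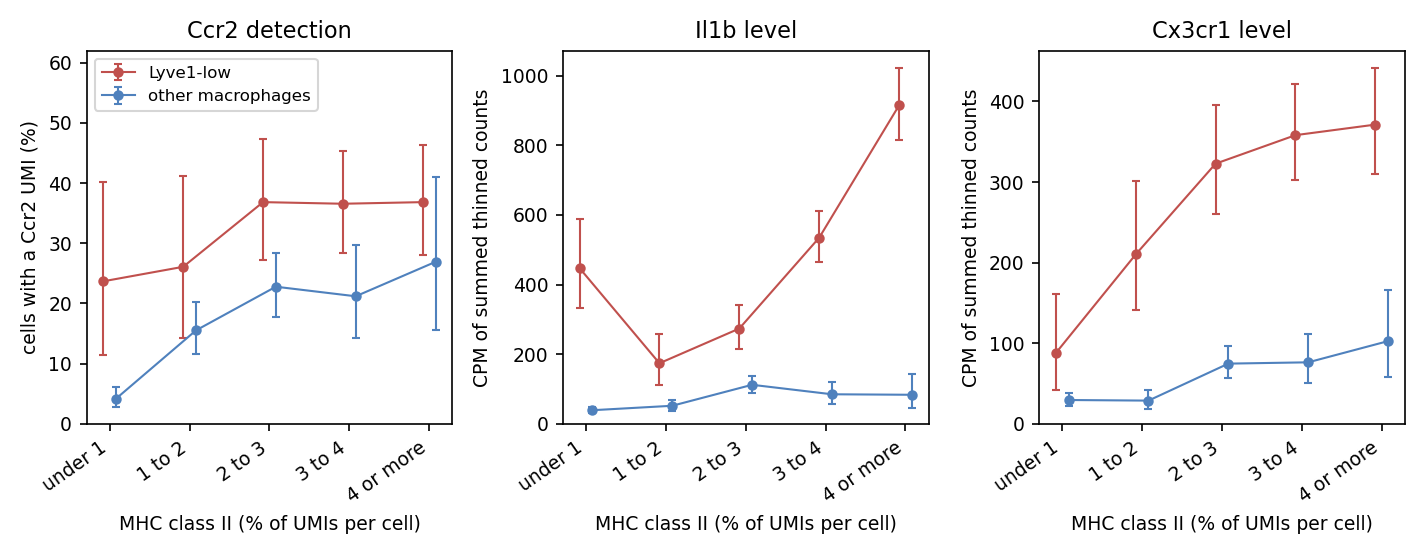
Share of cells with a Ccr2 UMI (%) and levels of Il1b and Cx3cr1 (CPM of thinned counts) in 5 bins of class II share, for members (red) and other macrophages (blue), with exact 95% intervals for counting error. Il1b and Cx3cr1 stood higher in members in each bin, while the intervals for Ccr2 overlapped in all bins but the lowest.

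Members were higher in Cx3cr1, the fractalkine receptor, and in some inflammatory genes, and lower in others. Cx3cr1 stood at 255.6 against 44.3 CPM (5.77), and was detected in 50.6% of members and 10.3% of other macrophages. Cells past the mast cell limit had a Cx3cr1 UMI in 18.7%, and the gene model overlaps 9 others, 3 on its own strand, so its reads cannot be assigned with certainty. Il1b stood at 434.1 against 75.5 CPM (5.75), in 29.0% against 6.30% of cells, with a mast cell background of 0.421%. The collagenase Mmp13 was at 184.1 against 17.9 CPM (10.3), and the adhesion molecule Vcam1 at 236.9 against 56.9 CPM (4.17). Of 16 inflammatory cytokines and chemokines that reached 50 CPM, 4 were 2-fold higher and 5 were 2-fold lower. Among all genes, 2.15% were higher and 4.23% lower. The list's median ratio was 1.01 and its summed ratio 0.862 (0.853 to 0.871). Besides Il1b, the higher ones were the chemokines Ccl4 (1372 against 544.1 CPM) and Cxcl16 (293.9 against 95.2 CPM) and the cytokine Tnf (117.8 against 58.4 CPM). The lower ones were the cytokine Il6 (24.3 against 60.4 CPM) and the chemokines Ccl6 (612.3 against 1731 CPM), Ccl7 (607.9 against 1510 CPM), Ccl9 (316.2 against 687.0 CPM) and Ccl24.

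Some of the highest ratios came from very few cells. Hp, which encodes haptoglobin, had the highest ratio (41.5), and 756 of its 784 UMIs were in 1 member. For Hmga2 and Pcdh9, with ratios of 6.42 and 4.70, 5 cells held 83.2% and 83.4% of the UMIs. In cells called for the Macrophages tag alone and thinned, these ratios were 1.70, 1.20 and 1.69. The same restriction gave 8.74 for Il1b, 7.41 for Cx3cr1 and 11.6 for Mmp13.

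Genes of the resident programme were lower. Of 14 resident macrophage genes that reached 50 CPM, 9 were 2-fold or more lower, where 4.23% of all genes were, and none was higher. The list's median ratio was 0.372. This list shares its biology with the genes of the rule, so its direction is a description. Mrc1 stood at 1622 against 4584 CPM (0.354), the haemoglobin scavenger receptor Cd163 at 199.8 against 768.3 CPM (0.260) and the transglutaminase F13a1 at 549.9 against 3289 CPM (0.167). The endothelin receptor Ednrb was at 44.7 against 1025 CPM (0.0436), the lectin Cd209f at 30.4 against 517.6 CPM (0.0588) and the chemokine Ccl24 at 111.5 against 838.2 CPM (0.133). Retnla, a secreted protein of alternative activation, was at 1225 against 4944 CPM (0.248). Mrc1 was detected in 89.9% of members and 98.2% of other macrophages.

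Lipid-handling genes differed in both directions, with more of them higher in the members. Of 18 that reached 50 CPM, 6 were 2-fold higher and 1 was lower, where 2.15% of all genes were higher and 4.23% lower. Their median ratio was 1.19, while the list's summed level, to which Apoe contributed most, was lower (0.807). Lpl, the lipoprotein lipase, stood at 357.2 against 150.9 CPM (2.37), and Pparg, a lipid-sensing nuclear receptor, at 119.6 against 29.4 CPM (4.06). The lipid receptor Trem2 was at 85.4 against 39.5 CPM (2.17) and the tetraspanin Cd9 at 112.4 against 54.2 CPM (2.08). Apoe, the lipid carrier apolipoprotein E, was at 5216 against 7965 CPM (0.655), and the cholesterol exporter Abca1 at 277.4 against 671.8 CPM (0.413). In cells with the Macrophages tag alone, thinned, Lpl, Pparg, Trem2 and Cd9 kept ratios of 3.19, 3.23, 2.03 and 2.81. Spp1, at 2.16 in the sums with 57.2% of its UMIs in 5 cells, was at 0.982 there. Fabp5, at 2.23 with 55.3% in 5 cells, was at 1.61, and Fabp4 was at 0.904.

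**Figure D3:**
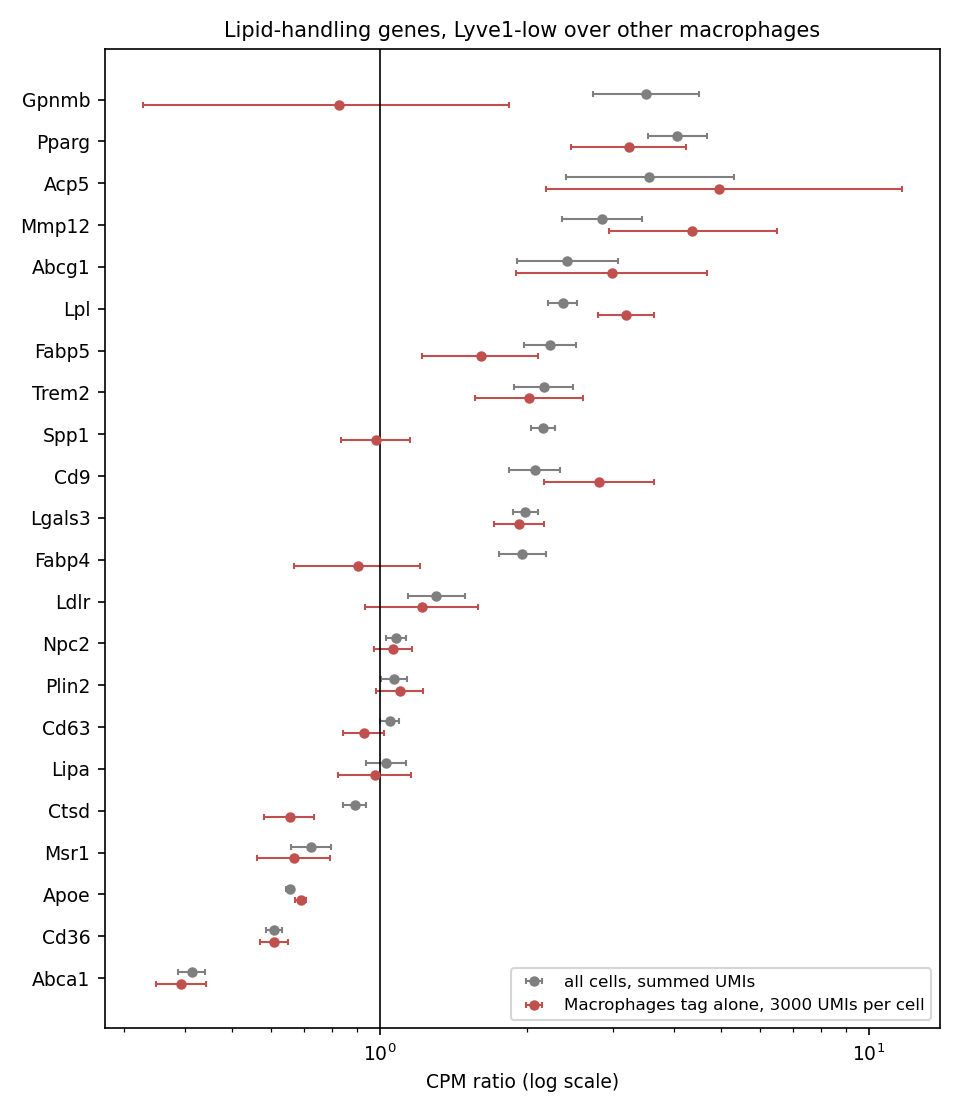
Ratio of CPM in members over other macrophages (log scale) for 22 listed lipid-handling genes, from summed UMIs of all cells (grey) and from thinned cells with the Macrophages tag alone (red), with exact 95% intervals for counting error. Pparg, Lpl, Trem2 and Cd9 lie above 1 in both, Abca1, Cd36 and Apoe below 1 in both, and Spp1, Fabp4 and Gpnmb are above 1 only in the sums.

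Other listed groups differed less. Of 14 genes of MHC class I and antigen processing that reached 50 CPM, none was past 2-fold between members and other macrophages (median ratio 1.08), and none of 13 was past 1.5-fold by Ccr2 (1.02). Of 15 macrophage identity genes, Cx3cr1 alone was past 2-fold (median 1.07). Of 5 dendritic cell genes that reached 50 CPM, 2 were 2-fold or more lower in members, as were 4.23% of all genes. Itgax, the integrin CD11c, stood at 19.6 CPM in members and 4.56 CPM in other macrophages, under that level in both. The 10 fibroblast genes summed to 426.7 against 301.1 CPM. The 5 adipocyte genes summed to 112.0 against 6.18 CPM, with 133 of the 138 Adipoq UMIs in 1 member. All 184 UMIs of the neutrophil gene S100a8 were in 4 members.

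Ccr2-positive members were higher in Retnla and in several genes of the monocyte list. Of 8 monocyte genes that reached 50 CPM, 4 were past 1.5-fold higher and none was lower. Among all genes, 3.06% were higher and 5.28% lower. The list's median ratio was 1.55, against 0.995 for all genes. S100a4, a calcium-binding protein, was at 290.2 against 144.0 CPM, a ratio of 2.02 (1.56 to 2.61), and fibronectin, Fn1, at 240.4 against 134.5 CPM (1.79, 1.36 to 2.35). The integrin Itga4 was at a ratio of 1.73 and the lysozyme Lyz1 at 1.65. Before thinning, Lyz1 UMIs were found in only 33 of 463 members, and 5 cells held 65.0% of them. With the Macrophages tag alone Lyz1 was at 1.61 (1.13 to 2.28). Lyz1 may share reads with its near copy Lyz2. Tnip3, an inhibitor of NF-kappaB signalling, was at 460.3 against 159.5 CPM (2.89), and the guanine deaminase Gda at 408.2 against 167.9 CPM (2.43). In other macrophages the Ccr2 split gave 3.47 for Tnip3, 1.90 for S100a4, 3.30 for Fn1, 7.96 for Lyz1 and 1.36 for Gda. Ccr2-positive and Ccr2-negative members had mast cell list sums of 1796 and 1755 CPM.

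Retnla had the highest ratio of the genes in this split, 2154 against 269.0 CPM, or 8.01 (6.92 to 9.30). In other macrophages Retnla was at 7798 against 4750 CPM by Ccr2, a ratio of only 1.64 (1.585 to 1.7), and higher on both sides than in members. Among members its detection was nearly equal, 27.9% against 26.8%, with 9.13% in cells past the mast cell limit. The difference lay in a small number of cells with many UMIs. At 3000 UMIs, 21 of 147 Ccr2-positive cells (14.3%) and 5 of 280 Ccr2-negative cells (1.79%) had 10 or more Retnla UMIs. Those 26 cells, singled out after their values were seen, had 3615 CPM of Mrc1 against 1510 in the remaining 401, and 1487 against 457.2 CPM of F13a1. They were also higher in Lyz1 (679.5 against 74.0 CPM), Fn1 (589.7 against 143.8), S100a4 (525.6 against 172.9) and Gda (897.4 against 208.6). Il1b (89.7 against 560.3 CPM) and Cx3cr1 (115.4 against 326.7) were lower in them. The part of these 26 cells in the monocyte gene ratios by Ccr2 was not tested. Only 8 of the 26 had no UMI of Lyve1, Folr2 and Timd4, against 262 of the 401. Among all members without such a UMI (106 Ccr2-positive, 164 Ccr2-negative), the Retnla ratio was 4.90 (3.82 to 6.33), S100a4 was at 3.02 and Tnip3 at 2.72. In that subset Lyz1 was at 1.34 and Pparg at 1.14, with intervals that include 1. Retnla lies at chr16:48842551-48844461 on the plus strand.

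Chemokines differed in both directions between Ccr2-positive and Ccr2-negative members. Of 17 inflammatory cytokines and chemokines that reached 50 CPM, 2 were past 1.5-fold higher in Ccr2-positive cells and 3 lower. Among all genes, 3.06% were higher and 5.28% lower. The list's median ratio was 0.999. The chemokines Ccl6 (750.6 against 496.4 CPM, 1.51) and Ccl9 (408.2 against 260.7 CPM, 1.57) were the higher ones. Not all of the lower chemokines named next were in that list. Ccl12, a ligand of Ccr2, was at 415.0 against 822.6 CPM (0.504), and the monocyte chemoattractant Ccl8 at 34.0 against 154.8 CPM (0.220). The interferon-induced chemokines Cxcl9 and Cxcl10 were at 0.313 (0.155 to 0.581) and 0.526 (0.282 to 0.927). In other macrophages they stood at 4.20 (2.50 to 6.94) and 2.42 (1.59 to 3.62), the opposite direction, though the difference between the sets was not tested, and 5 members held 69.3% of all Cxcl9 UMIs. Ccl12 was on the same side there, at 0.632. Among the genes lowest in Ccr2-positive members were 4 haemoglobin genes. For the haemoglobin gene Hbb-bs, 5 cells held 99.1% of 6940 UMIs, and with the Macrophages tag alone its ratio was 2.06 (0.831 to 5.15), on the other side of 1.

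By Ccr2, few lipid genes passed the fold, while their summed level was lower in Ccr2-positive members, at a ratio of 0.799 (0.770 to 0.828). Of 19 that reached 50 CPM, Pparg was past 1.5-fold higher (1.61) and Fabp4 lower (0.426), with a median ratio of 0.879. Among all genes, 3.06% were higher and 5.28% lower. Before thinning, 5 members held 50.0% of all Fabp4 UMIs. With the Macrophages tag alone, Fabp4 was at 0.615 by Ccr2 (0.319 to 1.12), an interval that includes 1. Pparg was at 1.52 (1.03 to 2.24) there. Apoe was at 4676 against 6862 CPM (0.681, 0.648 to 0.717). Lpl was at 408.2 against 353.6 CPM (1.15, 0.954 to 1.39) and was detected in 53.7% and 46.4% of cells. Csf1r stood at 0.890 (0.757 to 1.04) and Cx3cr1 at 1.15 (0.930 to 1.41), both with intervals that include 1.

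**Figure D4:**
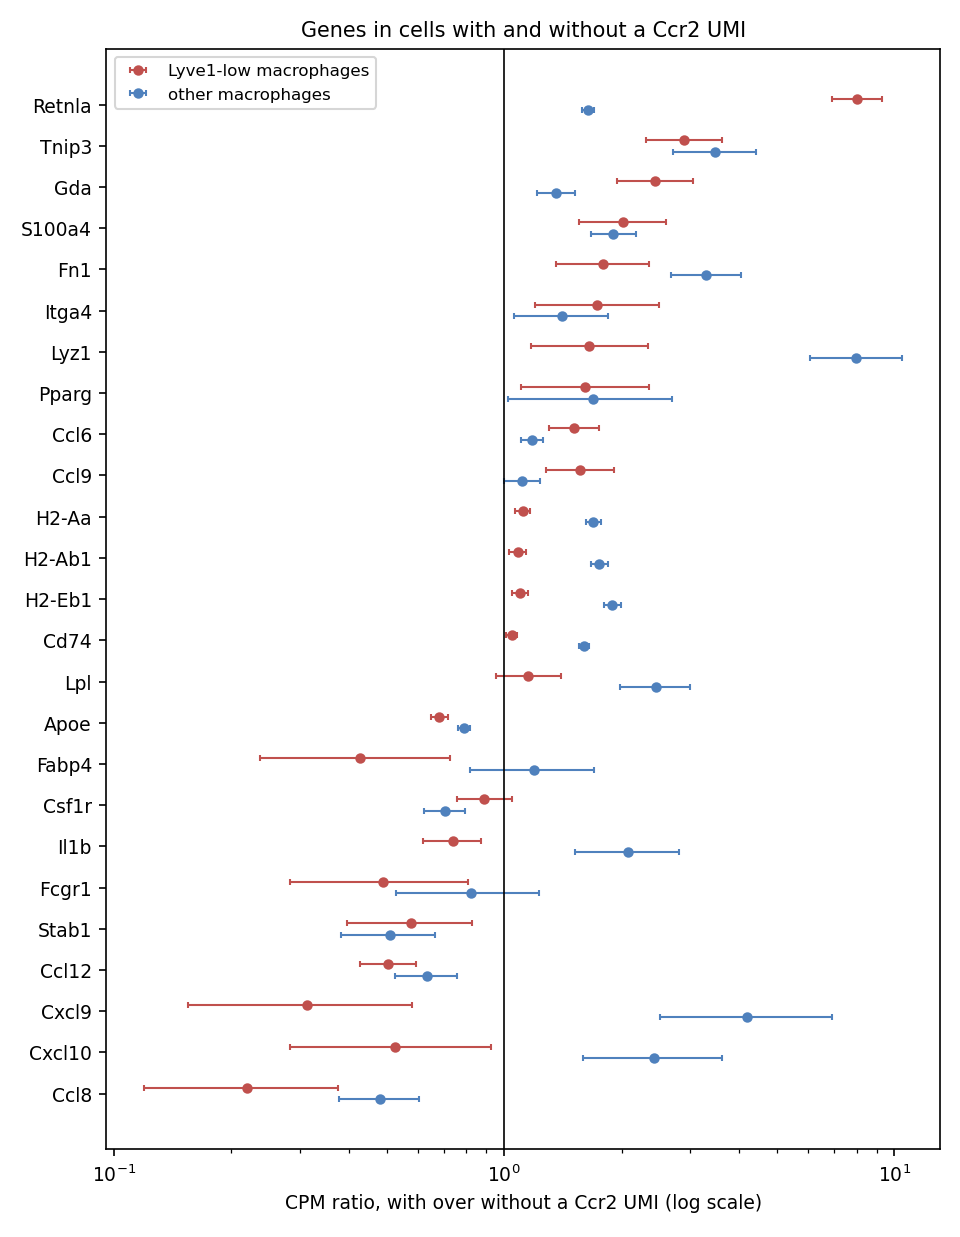
Ratio of CPM in cells with over cells without a Ccr2 UMI (log scale) at 3000 UMIs per cell, in members (red) and other macrophages (blue), with exact 95% intervals for counting error, for 25 genes chosen after their values were seen. Class II genes lie near 1 in members and between 1.5 and 2 in other macrophages, Tnip3 and S100a4 lie above 1 in both, Ccl8 and Ccl12 below 1 in both, and Cxcl9, Cxcl10 and Il1b on opposite sides.

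Cycle genes were detected in a minority of the members. At least 3 of 12 genes of G2 and mitosis, such as the topoisomerase Top2a and the proliferation marker Mki67, were detected in 22 of 427 members (5.15%, 3.26 to 7.70). The share was 33 of 1318 (2.50%, 1.73 to 3.50) in other macrophages and 13.7% in cells past the mast cell limit. At least 3 of 12 S phase genes were detected in 28 members (6.56%, 4.40 to 9.34) and 41 other macrophages (3.11%, 2.24 to 4.20). Either phase was called in 44 members (10.3%) and 64 other macrophages (4.86%). By Ccr2, 7 of 147 positive cells (4.76%) and 15 of 280 negative cells (5.36%) passed for G2 and mitosis, a difference of -0.595 percentage points (-4.96 to 4.74). A difference within that interval, in either direction, could not be told from none at this number of cells. The sign turned to 0.598 points at a limit of 150 CPM on Lyve1, Folr2 and Timd4 and to 4.44 points (-1.29 to 10.5) without thinning. Either phase was called in 9.52% of positive and 10.7% of negative cells. The summed level of the 12 G2 and mitosis genes was lower in positive cells, at 258.5 against 350 CPM (0.739, 0.590 to 0.920). That of the 12 S phase genes was at a ratio of 1.04 (0.837 to 1.29). Before thinning, 5 members held 38.9% of all Top2a UMIs. The 22 cells in G2 or mitosis had 19864 CPM of class II genes against 32724 CPM in the other 405, which include S phase cells, and 14 of them were in the lowest of the 4 class II groups. Their median depth before thinning was 14681 UMIs against 7372, and the part of depth was not tested. Scrublet marked none of the 22, and 18 carried the Macrophages tag alone.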

How the data were processed

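The authors deposited raw UMI counts per gene and barcode. The file headers give Cell Ranger 7.0.0 as their source. The mm10 build, STAR, R 4.1.3 and Seurat 4.1.1 are named in the submitters' processing notes. Use of strand and of intronic reads is not given in the sources used here. The matrix held 32285 genes and 3 tags, and tags stayed out of gene totals. The second sample, a library of tags, was not used here. A tag was called at 2 times its background (1.4 times for Cafum). The members and gene lists were chosen with earlier results of these data known. Counts were summed per set and given as CPM with exact Poisson intervals, shares with Clopper-Pearson intervals and ratios with conditional binomial intervals, all at 95% and for counting error only. Cells are not replicates, so no test was made. Genes entered a comparison at 50 CPM over both sets, and were called past 1.5-fold by Ccr2 or 2-fold by Lyve1. Named genes were the 12 highest and 12 lowest ratios per comparison, leaving out rule, mitochondrial, ribosomal and unnamed model genes, plus list members with high levels or past the fold. A gene that this rule names is not reported here. Genes named for concentration, Retnla-high cells and the subset without a Lyve1, Folr2 or Timd4 UMI were chosen after values were seen. Python 3.11.15, scipy 1.17.1 and scanpy 1.11.5 (Scrublet) were used. The interval code was tested on simulated data. Alternatives were other limits on the rule genes, mitochondrial share, doublet calls, tag and depth.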

Additional observations from a re-analysis of the deposited data

How the results depend on the processing

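Of 105 values under 11 alternatives, 76 stayed within counting error or 1.5 times the main count, 29 moved and 0 turned from a value past its counting error to the other side. The difference in G2 and mitosis share by Ccr2, whose interval includes 0 (-0.595 points), changed sign to 0.598 at 150 CPM and to 4.44 without thinning, with intervals that also include 0. The limit on Lyve1, Folr2 and Timd4 set the share of macrophages that were members, 20.2% at 150 and 33.8% at 600 CPM. The class II ratio by Ccr2 was 1.05 at 150 CPM, 1.14 at 600, 1.04 at a C1q minimum of 0.3%, 1.05 with the Macrophages tag alone, 1.17 at 5500 UMIs, 1.31 without thinning and 1.13 with 2 Ccr2 UMIs required. The Ccr2 ratio of members over other macrophages was 2.16 at 600 CPM, 2.57 at the C1q minimum, 2.60 with the tag alone and 2.85 with both sets thinned, an alternative chosen after seeing the data. The class II ratio of the same sets was 2.04 at 150 CPM, 1.92 at 600, 2.20 at the C1q minimum, 2.05 at a mast cell limit of 0.75%, 1.90 at a mitochondrial limit of 5%, 2.04 without Scrublet calls, 2.14 with the tag alone and 2.16 with both sets thinned. Genes past 1.5-fold by Ccr2 numbered 91 higher and 157 lower, 170 and 280 at a mitochondrial limit of 5%, and 146 and 270 with 2 Ccr2 UMIs required. Both of those settings use fewer cells, and requiring 2 UMIs left out the 60 members with 1 Ccr2 UMI. Thinning to 5500 UMIs also used fewer cells and gave 91 and 138. The Ccr2 share was 43.6% at 5500 UMIs, 44.3% without thinning and 20.4% with 2 UMIs required. The share with the Macrophages tag was 85.3% at a mitochondrial limit of 5%. The cause of these moves was not tested. No paired analysis was possible because there was 1 library. A Ccr2-negative cell had no Ccr2 UMI at its depth and may still hold Ccr2 RNA.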
